A study of Mus musculus with 9 samples.

Results

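The genes described are the histone deacetylases Hdac1 to Hdac9 and the sirtuin Sirt1, 10 of the 55401 genes in the count table, found there by their symbols. Histone deacetylases remove acetyl groups from lysines of histones and other proteins and act mostly as parts of co-repressor complexes, against which acetyltransferases work. Class I enzymes (Hdac1, Hdac2, Hdac3 and Hdac8) are mainly nuclear, class IIa enzymes (Hdac4, Hdac5, Hdac7 and Hdac9) shuttle between nucleus and cytoplasm and bind transcription factors of the MEF2 family, and the class IIb enzyme Hdac6 deacetylates tubulin in the cytoplasm. Sirt1, of class III, uses NAD+ instead of zinc and in the liver deacetylates regulators of fasting, lipid and bile acid metabolism.

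Bulk RNA-seq was performed on whole livers of female mice, 3 livers in each of 3 groups. Healthy livers came from WT mice with neither oncogene injection nor virus. In the other groups hepatocellular carcinoma (HCC) was started by hydrodynamic tail vein injection of plasmids for a myristoylated AKT and an activated Nras (Nras-v12), with a Sleeping Beauty transposase plasmid, at 6 weeks of age. These mice received, 1 week later, adeno-associated virus of serotype 8 (AAV8), which was blank in untreated HCC and carried miR-22 behind a CMV promoter in miR-22-treated HCC. The virus acted for 4 weeks until livers were taken, 5 weeks after the oncogene injection. The healthy livers thus lacked the injection and the blank virus as well as the tumors, and neither the oncogene plasmids nor the CMV promoter confine expression to a tumor cell. The sample labels give the strain as C57BL/6, whereas the growth protocol and the study's methods give FVB/N.

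The virus delivered miR-22-3p, and its sequence (RefSeq, GRCm38.p6, chr11:75463772-75463793, plus strand) is shown because its seed, bases 2 to 8 in capitals, gives the letters to look for in the deacetylase transcripts. No other of the 1738 mature miRNAs in the RefSeq table had this seed.
miR-22-3p: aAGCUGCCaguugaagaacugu
The complementary letters, GGCAGCT, were searched on the transcript strand in the annotated 3′ UTR of the canonical transcript of each gene (GENCODE M39, GRCm39). They occurred in 4 of the 10 genes and in 2929 of 20854 protein-coding genes with a 3′ UTR (14.0%). The 4 stretches are printed with the match in capitals, since these are the members with this match. Shorter seed matches, other transcripts and coding sequence were not searched. All lie on the minus strand, in the 3′ UTR.
Sirt1, chr10:63155929-63155955: ttttccaaaacttgtGGCAGCTaactt
Hdac4, chr1:91857567-91857593: ttgcacgccaaactcGGCAGCTttggg
Hdac6, chrX:7796652-7796678: tgaggccacaggcagGGCAGCTtagtt
Hdac8, chrX:101328594-101328620: caaggggcaccaagtGGCAGCTggcct
Longer UTRs hold such letters more often. Among 3′ UTRs of similar length (from 0.8 times the gene's own to its own divided by 0.8), 37.0% held a match for Hdac4, 17.8% for Sirt1, 11.2% for Hdac6 and 5.31% for Hdac8. Only in Sirt1 was the match followed by an A. A match describes the letters and does not show binding.

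The libraries held 16664659 to 23908392 counts. Of all genes, 15717 passed the filter on low counts, and the median log2 fold change of these was within 0.022 of 0 in each comparison. Levels are given as CPM, the counts scaled to a common library size by the trimmed mean of M values, with scaling factors of 0.8655 to 0.8721 for healthy, 1.121 to 1.223 for untreated HCC and 0.942 to 1.029 for treated HCC libraries. Whole liver was sequenced, so fewer cells of a type and less RNA per cell cannot be told apart. Marker lists were summed in each liver and are given as ranges for healthy livers, untreated HCC and miR-22-treated HCC, in that order. The 8 hepatocyte markers summed to 136000 to 140000, 54900 to 68900 and 82900 to 103000 CPM. The 6 duct markers summed to 29.5 to 42.1, 3340 to 6260 and 1570 to 2710 CPM, and the 6 proliferation markers to 9.74 to 14.5, 145 to 185 and 90.8 to 135 CPM. The 8 stellate cell and fibroblast markers summed to 261 to 295, 749 to 866 and 626 to 718 CPM, and the 8 endothelial markers to 282 to 369, 199 to 241 and 233 to 313 CPM. The 6 neutrophil markers had summed medians of 1.98, 19.3 and 16.6 CPM (highest healthy liver 4.4, lowest treated liver 14.7), and the 3 of them that were tested rose in untreated HCC, with Ly6g at 0 in healthy livers and untreated HCC. The medians were 7.62, 9.89 and 9.99 CPM for the 8 T cell markers, 5.48, 4.92 and 8.04 for the 6 B cell markers, and 410, 390 and 441 for the 8 macrophage markers, of which 1 was higher and 3 were lower in untreated HCC. Akt1 and Nras, after which the injected oncogenes are named, averaged 105 ± 2.97 and 28.6 ± 1.51 CPM in healthy livers, 1490 ± 275 and 69.9 ± 7.02 in untreated HCC, and 858 ± 222 and 54.6 ± 1.09 in miR-22-treated HCC (SD, n = 3). These libraries do not count the delivered mature miRNA. Mir22hg, the host transcript of endogenous miR-22, averaged 61.9 ± 7.79, 18.1 ± 4.2 and 30.8 ± 2.56 CPM.

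To compare levels between genes, CPM were divided by the length of the canonical transcript in kilobases. The order depends on this length, and which transcripts the livers used was not tested. Without the division Hdac5 had the highest mean in healthy livers (53.27 CPM, with 38.45 for Hdac3). In healthy livers Hdac2 (14.7 ± 0.566 CPM per kb), Hdac3 (13.6 ± 0.704) and Hdac1 (12.5 ± 0.743) stood at the top (SD, n = 3), and neighbors among these 3 overlapped between livers. Hdac5 (10.2 ± 0.988), Hdac6 (6.2 ± 0.479) and Sirt1 (4.77 ± 0.411) followed, each without overlap with its neighbor in this order. Hdac8 (2.08 ± 0.33), Hdac4 (1.68 ± 0.0798) and Hdac7 (1.5 ± 0.25) overlapped in turn, and Hdac9 was lowest at 0.114 ± 0.0428 CPM per kb. By group means the top 5 and the lowest gene held the same places in untreated and miR-22-treated HCC. In miR-22-treated HCC the livers of Hdac6 and Sirt1, and of Sirt1 and Hdac8, overlapped, so their order there did not exceed the spread. Sirt1 stood after Hdac8 in untreated HCC, at 2.57 CPM per kb, where it overlapped Hdac7 (2.23 CPM per kb), and before Hdac8 in miR-22-treated HCC, at 4.29 CPM per kb.

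**Figure D1:**
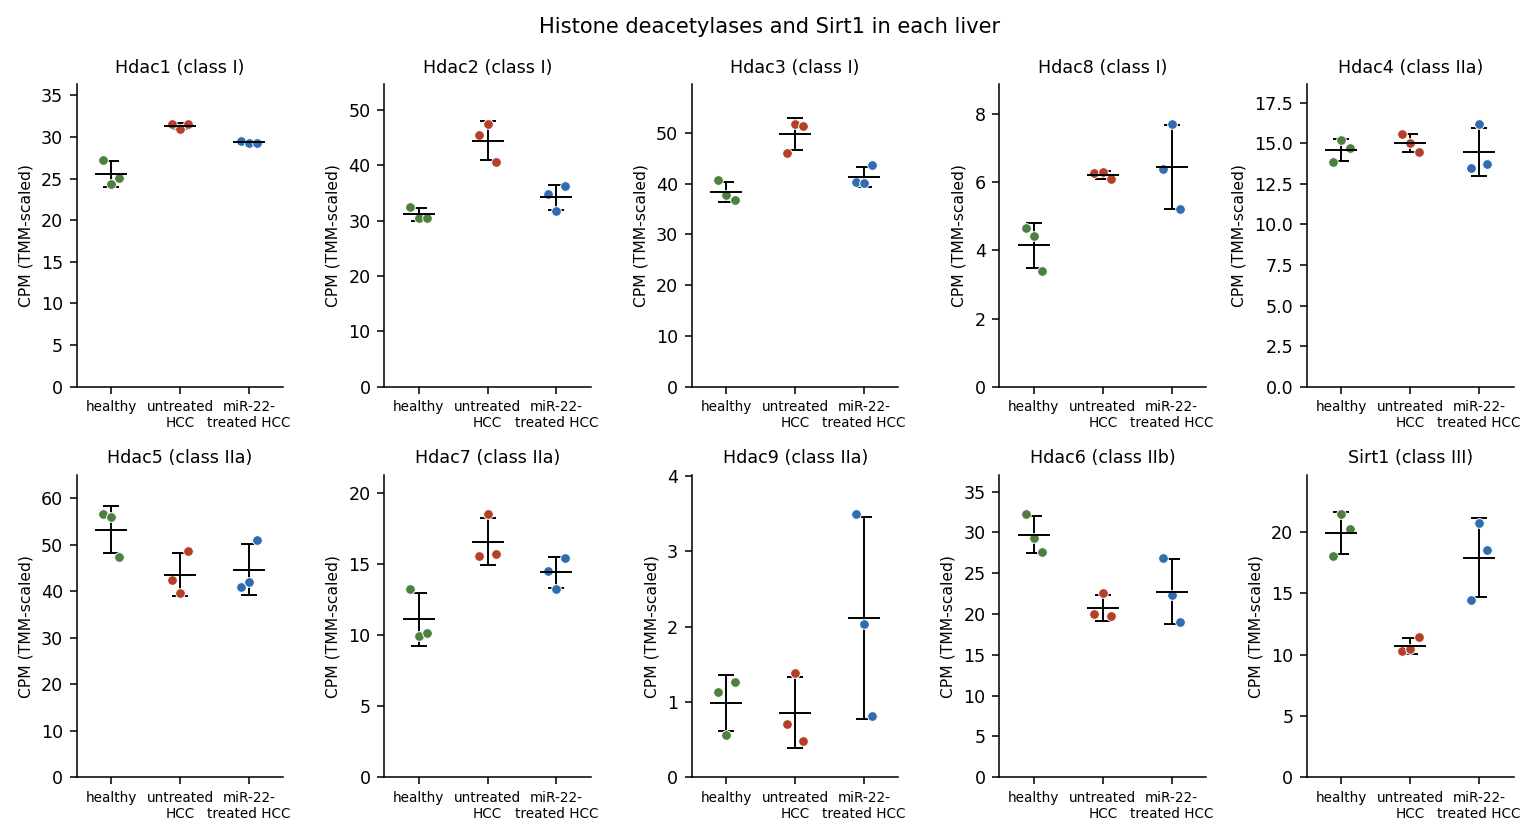
Level of each deacetylase gene in each liver (CPM, linear axis from 0), with points for livers, lines for group means and bars for the SD (n = 3). Sirt1 lies at 10.3 to 11.5 CPM in untreated HCC, below all other livers, whereas Hdac1, Hdac2 and Hdac3 are highest in untreated HCC.

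The first comparison asked which deacetylases differed between untreated HCC and healthy livers. Class I genes rose and Sirt1 and Hdac6 fell. With edgeR's quasi-likelihood test and Benjamini-Hochberg adjustment over all tested genes, 8 of the 10 genes passed at an adjusted p under 0.05, 5 higher (Hdac1, Hdac2, Hdac3, Hdac7 and Hdac8) and 3 lower (Hdac5, Hdac6 and Sirt1). Of all tested genes 56.2% passed (29.4% higher and 26.8% lower). With a fold change over 1.5 required as well, 2 of the 10 were called, Hdac8 higher and Sirt1 lower, against 40.8% of all tested genes (22.7% higher and 18.1% lower). The other 6 that passed changed by less than 1.5-fold. The livers of both groups did not overlap for 7 of the 10 genes, 5 higher and 2 lower, against 65.3% of all tested genes (33.9% higher and 31.4% lower). The median log2 fold change of the 10 was 0.17, with 0.012 for all tested genes.

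Among class I genes, Hdac2 (ENSMUSG00000019777.16; chr10:36850435-36877890, plus strand), a catalytic subunit of the NuRD, Sin3 and CoREST complexes, had the smallest p. Its CPM were 32.5, 30.4 and 30.4 in healthy livers and 45.5, 47.5 and 40.5 in untreated HCC. The groups did not overlap, and the level was 1.43-fold higher (log2 0.52, SE 0.093, edgeR adjusted p = 0.000436). Hdac1, its close paralog in the same complexes, had 27.3, 24.4 and 25.1 CPM in healthy livers and 31.6, 30.9 and 31.6 in untreated HCC. It was 1.23-fold higher without overlap (log2 0.29, SE 0.086, edgeR adjusted p = 0.0107). Its pseudogene Hdac1-ps rose too (log2 0.45, adjusted p = 0.0293), from 5.13 to 7.02 CPM, and reads shared by both cannot be told apart.

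Hdac3, the catalytic subunit of the NCoR/SMRT complex that represses lipid genes in the liver, had 40.7, 37.8 and 36.9 CPM in healthy livers and 46.1, 51.8 and 51.5 in untreated HCC. It rose 1.3-fold without overlap (log2 0.37, SE 0.087, edgeR adjusted p = 0.00261). Hdac8, which deacetylates the cohesin subunit SMC3, had 4.65, 4.41 and 3.41 CPM in healthy livers and 6.28, 6.31 and 6.09 in untreated HCC. It rose 1.5-fold (log2 0.59, SE 0.195, edgeR adjusted p = 0.0217), just past the fold threshold. It was not called with DESeq2 size factors (0.583), with DESeq2 (0.585), with edgeR's glmTreat, which tests against the fold itself, or without miR-22-treated HCC replicate 2 (0.576). The healthy liver with the lowest Hdac8 was replicate 3, and without it the log2 difference was 0.446 with an adjusted p of 0.104, and without untreated HCC replicate 2 or 3 the adjusted p was 0.0533 or 0.0517. Proliferation markers were higher in each HCC liver than in each healthy liver, as given above. Neutrophil markers rose too, and the part of either list in the rise of class I genes was not tested.

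Of the class IIa genes, Hdac7, known from endothelial cells and thymocytes, had 13.3, 9.95 and 10.2 CPM in healthy livers and 15.6, 18.5 and 15.7 in untreated HCC. It rose 1.49-fold without overlap (log2 0.58, SE 0.139, edgeR adjusted p = 0.00346), just short of the fold threshold. It exceeded that threshold with upper-quartile scaling (log2 0.623), in the fit of these groups alone (0.586), with no low-count filter (0.586) and with a minimum of 10 counts per library (0.622). It also did so without healthy replicate 1 (0.706) or untreated HCC replicate 2 (0.62) or 4 (0.614). Hdac7 shares 2106 exon bases with Slc48a1 on the other strand, and Slc48a1 rose more (log2 1.1). The library kit did not mark strand, so reads of both genes in that stretch cannot be told apart. Of 8 endothelial markers 4 were lower and none higher in untreated HCC, and their part in the Hdac7 level was not tested.

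Hdac5, a class IIa enzyme phosphorylated by AMPK and related kinases, had 56.5, 56.0 and 47.4 CPM in healthy livers and 42.5, 39.5 and 48.6 in untreated HCC. These ranges overlapped, and the fall of 0.289 on the log2 scale (SE 0.115, edgeR adjusted p = 0.0477) did not pass in 8 of 17 alternatives. The adjusted p was 0.121 or 0.127 without healthy replicate 1 or 2, 0.124 or 0.172 without untreated HCC replicate 2 or 3, and 0.0554 without miR-22-treated HCC replicate 3. It was 0.0515 with DESeq2, 0.0909 with upper-quartile scaling and 0.086 with at least 10 counts required in every library. Its overlapping antisense neighbor G6pc3 was at 4.72 and 7.51 CPM. Hdac4, a class IIa enzyme that represses MEF2 targets, lay between 13.5 and 16.2 CPM in all 9 livers and differed by 0.045 on the log2 scale (95% interval −0.201 to 0.29, edgeR adjusted p = 0.757). Hdac9 was low, with 9 to 31 counts in healthy and untreated livers, and its interval of −1.462 to 1.02 allowed a large change in either direction.

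Hdac6, the tubulin deacetylase, fell. Its CPM were 32.2, 29.4 and 27.6 in healthy livers and 19.96, 22.6 and 19.7 in untreated HCC. No liver overlapped, and the level was 1.43-fold lower (log2 −0.52, SE 0.128, edgeR adjusted p = 0.00406).

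Sirt1 (ENSMUSG00000020063.16; GENCODE M39, GRCm39, chr10:63154581-63217483, minus strand) showed the largest fall among the 10. Its CPM were 18.0, 21.4 and 20.2 in healthy livers and 10.3, 10.4 and 11.5 in untreated HCC. The untreated HCC livers were all below the healthy ones, by 1.85-fold (log2 −0.89, SE 0.14, edgeR adjusted p = 0.000143). The direction and an adjusted p under 0.05 held in 17 of 17 refits, in which the log2 difference lay between −1.0 and −0.84. Hepatocyte markers fell too, 8 of 8 in number, and their part in this fall was not tested. Herc4, which shares 707 exon bases with Sirt1 on the other strand, was at 68.4 CPM in healthy livers and 58.2 in untreated HCC (log2 −0.23), and reads of both genes in that stretch cannot be told apart.

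**Figure D2:**
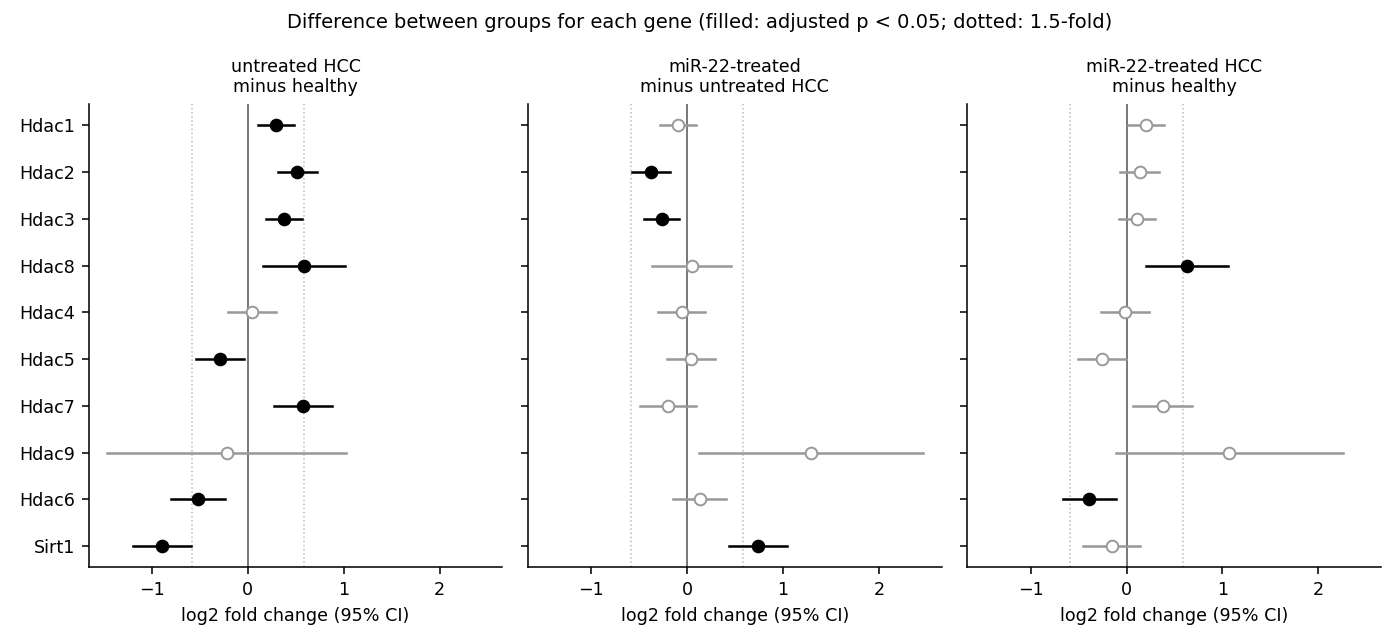
Log2 fold change of each deacetylase gene in the 3 comparisons, with points for the edgeR estimate (filled where the adjusted p is under 0.05), bars for the 95% interval and dotted lines at 1.5-fold. Sirt1 lies at −0.89 in untreated HCC against healthy livers and at 0.74 in miR-22-treated against untreated HCC.

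The second comparison set miR-22-treated beside untreated HCC livers. The study reported lower liver-to-body weight ratios and less tumor in treated mice. Akt1 was lower in treated livers (log2 −0.79, edgeR adjusted p = 0.00786). A smaller tumor share of the liver and a change within cells cannot be told apart here. Sirt1 rose, Hdac2 and Hdac3 fell, and the other 7 genes did not pass the test. Among all tested genes 24% passed (13.6% higher and 10.4% lower), and 13.8% were called with a fold over 1.5 (8.32% higher and 5.47% lower), which only Sirt1 met among the 10. This comparison shares the untreated HCC livers with the first.

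Sirt1 had 14.4, 20.7 and 18.6 CPM in miR-22-treated HCC and 10.3, 10.4 and 11.5 in untreated HCC. Each treated liver exceeded each untreated one, and Sirt1 rose 1.67-fold (log2 0.74, SE 0.14, edgeR adjusted p = 0.00295). In 17 of 17 refits it kept its direction and an adjusted p under 0.05, with log2 differences between 0.62 and 0.87. With glmTreat, which tests against 1.5-fold, it was not called. Hepatocyte markers rose as well, 6 of 8, and their part in the rise of Sirt1 was not tested. Herc4 was at 72.5 CPM in treated HCC (log2 0.32), and shared reads cannot be told apart here either.

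Hdac2 had 34.8, 31.7 and 36.2 CPM in miR-22-treated HCC, below the 40.5 to 47.5 CPM of untreated HCC. It was 1.3-fold lower (log2 −0.38, SE 0.093, edgeR adjusted p = 0.0116). Without untreated HCC replicate 3 or miR-22-treated HCC replicate 3 the adjusted p was 0.0555 or 0.0572. Hdac3 had 40.3, 40.2 and 43.7 CPM, below the 46.1 to 51.8 CPM of untreated HCC, and was 1.2-fold lower (log2 −0.27, SE 0.086, edgeR adjusted p = 0.0406). This call was lost in 9 of 17 alternatives, among them the fit without a low-count filter (adjusted p = 0.108), the fit of these groups alone (0.0612), and 6 that left out a liver. These were the fits without healthy replicate 2 (0.0525) or 3 (0.0509), untreated HCC replicate 3 (0.131) or 4 (0.111), or miR-22-treated HCC replicate 2 (0.0975) or 3 (0.133). Of 6 proliferation markers 3 fell and none rose with miR-22, and their part in these falls was not tested.

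Hdac5 had 40.9, 42.0 and 51.0 CPM in treated HCC and overlapped untreated HCC (log2 0.036, 95% interval −0.213 to 0.286). Hdac1 was lower in each treated liver (29.5, 29.3 and 29.3 CPM) than in each untreated one, yet the log2 difference was −0.093 (95% interval −0.278 to 0.092, edgeR adjusted p = 0.474). Non-overlapping ranges were found for 5 of the 10 genes (Hdac1, Hdac2, Hdac3 and Hdac7 lower, Sirt1 higher), against 39.3% of all tested genes (19.7% higher and 19.6% lower). Hdac7 had 14.5, 13.3 and 15.5 CPM (log2 −0.2, interval −0.496 to 0.097). Hdac9 had 3.49, 2.04 and 0.809 CPM against 0.703, 1.39 and 0.486 in untreated HCC, and the treated livers ranged widely (log2 1.29, SE 0.536, edgeR adjusted p = 0.101). Without miR-22-treated HCC replicate 4 it passed (log2 1.697, adjusted p = 0.0224), and so it did with no filter on low counts (1.286, adjusted p = 0.0168). Without miR-22-treated HCC replicate 2 the log2 difference was 0.708 (adjusted p = 0.428), and leaving out a liver moved it between 0.708 and 1.817.

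Of the 4 genes with a seed match 0 passed as lower by edgeR, also at an unadjusted p under 0.05, and 0 by DESeq2. Of all tested genes 10.4% passed as lower by edgeR, and 0 of 4 is near that share. Sirt1, with the match followed by A, rose. Hdac4 differed by −0.058 on the log2 scale (95% interval −0.303 to 0.187, −0.146 to −0.015 leaving out a liver), Hdac6 by 0.13 (−0.15 to 0.41) and Hdac8 by 0.046 (−0.365 to 0.456), and none passed. The intervals leave room for a modest fall at the level of RNA, and protein was not measured. A differing tumor share of the livers cannot be told apart in these values either. Hdac2 and Hdac3, which fell, held no such letters in their annotated 3′ UTR.

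The third comparison set miR-22-treated HCC beside healthy livers. Here 2 of the 10 genes passed, Hdac8 higher and Hdac6 lower, against 36.5% of all tested genes (21.4% higher and 15.1% lower). Only Hdac8 also exceeded 1.5-fold, against 24% of all tested genes (16.9% higher and 7.05% lower). Ranges did not overlap for 4 of the 10, with Hdac1, Hdac7 and Hdac8 higher and Hdac6 lower, against 48.8% of all tested genes (26.6% higher and 22.2% lower). Hdac8 had 6.41, 7.72 and 5.23 CPM in treated HCC and was 1.55-fold higher than in healthy livers (log2 0.63, SE 0.198, edgeR adjusted p = 0.025). The adjusted p was 0.111 without healthy replicate 3, 0.0978 without miR-22-treated HCC replicate 3, 0.0516 without healthy replicate 2 and 0.0505 without miR-22-treated HCC replicate 2. Hdac6 had 26.9, 22.3 and 19.0 CPM, a spread wider than in the other groups, and was 1.31-fold lower (log2 −0.39, SE 0.129, edgeR adjusted p = 0.0328). The adjusted p was 0.0932 or 0.0641 without healthy replicate 1 or 2, and 0.0742 or 0.117 without miR-22-treated HCC replicate 3 or 4. Sirt1 differed from healthy livers by −0.154 on the log2 scale (95% interval −0.453 to 0.145, adjusted p = 0.416). Without miR-22-treated HCC replicate 2 or 3 this was −0.033 or −0.269. Hdac2 (0.138, edgeR adjusted p = 0.278) and Hdac3 (0.107, edgeR adjusted p = 0.369) did not pass either. Leaving out a liver moved them between 0.095 and 0.19 and between 0.062 and 0.132. Some members passed only in alternatives. Hdac7 did so without healthy replicate 1 (0.503, adjusted p = 0.0181) and with the minimum of 10 counts (0.406, adjusted p = 0.0438). Without miR-22-treated HCC replicate 4, Hdac9 (1.475, edgeR adjusted p = 0.0403) and Hdac5 (−0.362, edgeR adjusted p = 0.0346) did. With all livers Hdac9 was at 1.071 (edgeR adjusted p = 0.145) and Hdac5 at −0.253 (edgeR adjusted p = 0.108). Leaving out a liver moved Hdac9 between 0.48 and 1.475 and Hdac5 between −0.362 and −0.205.

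The balance among classes was taken within each library as the share of the summed CPM per kb of the 10 genes. In this pool class IIb was Hdac6 alone and class III Sirt1 alone, and other sirtuins such as Sirt3 were left out. The size of each share depends on the transcript lengths used. Class I held 64.1%, 62.5% and 64.4% in healthy livers, 75.0%, 75.5% and 73.6% in untreated HCC, and 69.9%, 68.7% and 69.3% in miR-22-treated HCC. The 3 groups did not overlap, with treated HCC between the others. Class I averaged 63.7% ± 1.03, 74.7% ± 0.985 and 69.3% ± 0.582 (SD, n = 3). The exact two-sided permutation test gave p = 0.1 for untreated HCC against healthy livers and for miR-22-treated against untreated HCC, the smallest that 3 against 3 livers allow (adjusted over 12 tests, 0.133). Sirt1 held 7.1% ± 0.863 in healthy livers, 3.36% ± 0.227 in untreated HCC and 6.14% ± 1.1 in treated HCC (SD, n = 3). Hdac6 held 9.18% ± 0.262, 5.66% ± 0.32 and 6.8% ± 1.28, and class IIa 20.1% ± 0.822, 16.3% ± 1.04 and 17.8% ± 1.04. Treated livers overlapped untreated ones for Hdac6 (exact permutation p = 0.2) and class IIa (exact permutation p = 0.3).

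**Figure D3:**
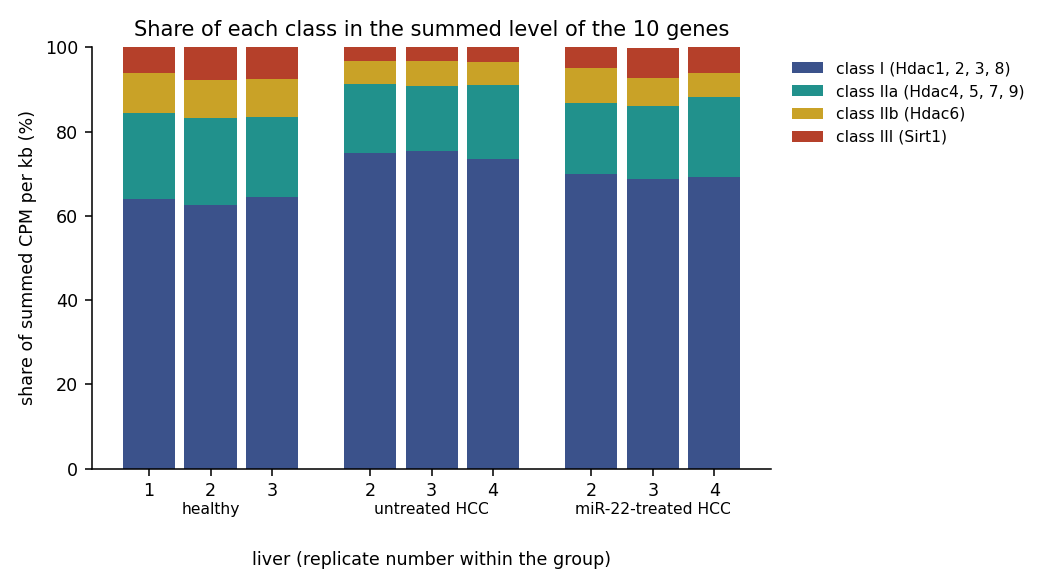
Share of the summed CPM per kb of the 10 deacetylase genes held by the members of each class in each liver (percent, bars stacked from 0 to 100). Class IIb is Hdac6 alone and class III Sirt1 alone. In untreated HCC class I takes 73.6% to 75.5%, above the 68.7% to 69.9% of treated HCC and the 62.5% to 64.4% of healthy livers.

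Partner genes were counted from lists chosen with earlier results of these data known, so the counts only describe these lists. The percentages for all tested genes given above serve as background. Of 12 tested NuRD genes 8 rose and 1 fell in untreated HCC, and the list median was 0.41. Gatad2a (log2 0.55, edgeR adjusted p = 0.000481) and Mta2 (0.4, 0.000711), which scaffold NuRD, rose, whereas the remodeler Chd3 fell (−1.29, 1.34e-06). With miR-22, 3 NuRD genes fell and none rose, namely Chd4 (−0.45), Mta2 (−0.33) and Gatad2a (−0.35). Of 10 CoREST and MiDAC genes 6 rose and 1 fell in untreated HCC, among them Dnttip1 (0.91), the demethylase Kdm1a (0.85) and the scaffold Rcor1 (0.56), which had the smallest p-values. With miR-22, 4 of the 10 fell and none rose, and Dnttip1, Kdm1a and Rcor1 were each at −0.48.

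Of 15 Sin3 genes 3 rose, 3 fell and 9 did not pass in untreated HCC. Sinhcaf (1.91) and Sap30 (0.98) rose and the scaffold Sin3a fell (−0.46). With miR-22 only Suds3 rose (0.34) and only Sinhcaf fell (−0.55) in this list. Of the 5 NCoR/SMRT genes none passed in untreated HCC, and Ncor1 was at −0.15 (edgeR adjusted p = 0.134). With miR-22 Tbl1xr1 rose (0.41, edgeR adjusted p = 0.0137). Of 15 acetyltransferases, which work against deacetylases, 2 fell (Ncoa3 at −0.63 and Ncoa2 at −0.66) and none rose in untreated HCC. With miR-22 Ncoa2 rose (0.38) and Ncoa1 fell (−0.36).

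Class IIa enzymes are held in the cytoplasm by 14-3-3 proteins after phosphorylation. Of 22 tested partners 10 rose and 4 fell in untreated HCC, among them the 14-3-3 genes Ywhaz (1.06) and Ywhah (1.34) upward and the AMPK catalytic subunit Prkaa2 (−0.87) downward. With miR-22, 2 rose and 3 fell, with Ywhaz at −0.46, Ywhag at −0.38 and Prkaa2 at 0.4. Of 13 HDAC6 partners 5 rose, 2 fell and 6 did not pass in untreated HCC, and the list median was 0.2. The smallest p-values were those of genes for HDAC6 substrates, cortactin (Cttn, 1.06) and the alpha tubulins Tuba1a (1.71) and Tuba1b (1.1), all higher. With miR-22 these 3 fell (−0.5, −0.64 and −0.52), and Hdac6 did not pass. HDAC6 acts on these proteins after translation, and their acetylation was not measured.

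Sirt1 depends on NAD+. Of 14 SIRT1 regulators and NAD+ genes 6 fell, 1 rose and 7 did not pass in untreated HCC, and the list median was −0.01. Nmrk1 (−2.33), Nampt, the rate-limiting enzyme of NAD+ salvage (−2.0), and Naprt (−0.82) had the smallest p-values. With miR-22, 5 rose, 1 fell and 8 did not pass, and the list median was 0.07. Those that rose included Nampt (1.58), Nmrk1 (1.27) and Naprt (0.5). All 14 genes for SIRT1 substrates passed in untreated HCC, 9 lower and 5 higher, among them the bile acid receptor gene Nr1h4 (−0.91), the oxysterol receptor gene Nr1h3 (−0.82) and Trp53 (1.23). With miR-22, 7 rose and 3 fell, and Foxo3 (0.95), Nr1h4 (0.6) and the coactivator Ppargc1a (1.2) rose. SIRT1 acts on these proteins after translation, and their acetylation was not measured.

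Among the other 8 deacetylase genes, 6 fell and 1 rose in untreated HCC. The smallest p-values were those of the mitochondrial sirtuin Sirt3 (−1.68, edgeR adjusted p = 1.1e-06), Sirt7 (−0.77) and Sirt2 (−0.39), all lower. With miR-22 Sirt3 was the one gene of these that passed (0.99, edgeR adjusted p = 0.000756). Sirt3 stayed below healthy livers in treated HCC (−0.69, edgeR adjusted p = 0.00235).

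**Figure D4:**
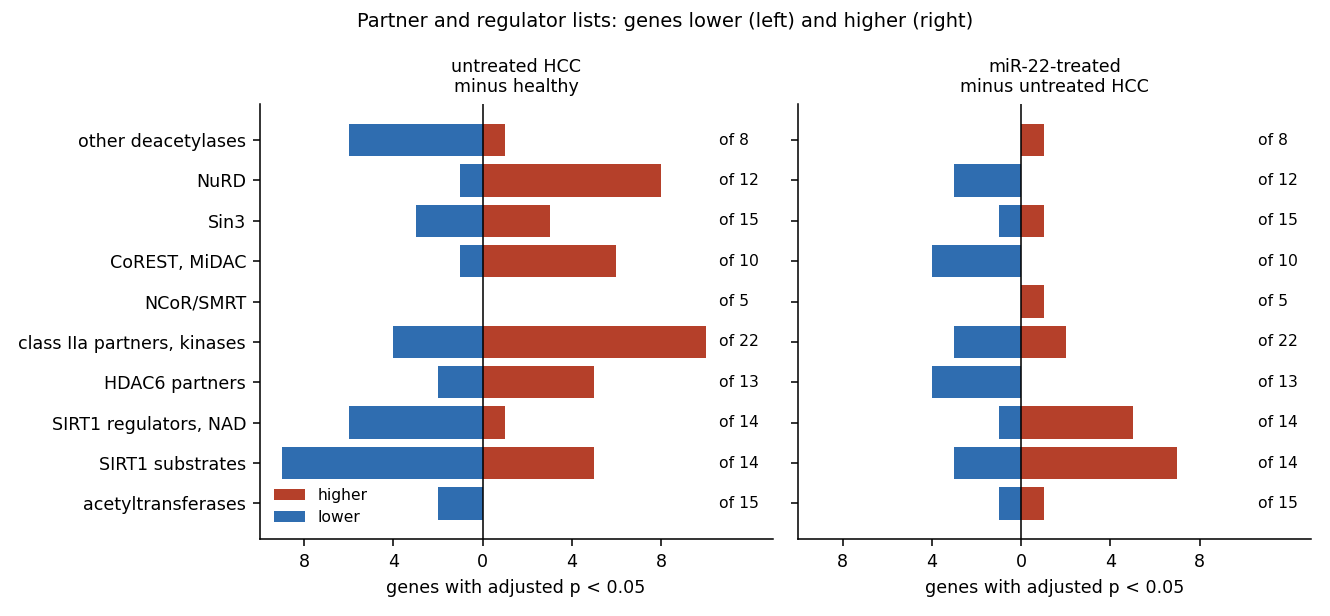
Genes of each partner list that passed the test (adjusted p under 0.05), higher to the right and lower to the left, for untreated HCC against healthy livers and for miR-22-treated against untreated HCC. NuRD shows 8 higher and 1 lower in untreated HCC, and 0 higher and 3 lower with miR-22.

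Genes with the pattern most like that of Sirt1 over the 9 livers were sought by the root mean square difference of centered log2(CPM + 1). The nearest were the aquaporin gene Aqp11 (0.061), 1810044K17Rik (0.074) and the peroxisomal fatty acid enzyme gene Eci2 (0.079), where the median gene differed by 0.449. The fitted log2 fold changes of 1810044K17Rik, −2.66 in untreated HCC and 2.36 with miR-22, were larger than those of Sirt1. For Hdac8, which had the highest log2 fold change in untreated HCC against healthy livers (0.586, next to 0.576 for Hdac7), they were Gm11847 (0.089), Btk (0.092) and Spn (0.095), with a median of 0.379. Hdac7 exceeded Hdac8 without healthy replicate 1 (0.706 and 0.66) or 3 (0.503 and 0.446), or without untreated HCC replicate 2 (0.62 and 0.58) or 4 (0.614 and 0.601). Btk and Spn are leukocyte genes. In untreated HCC 3 of 3 tested neutrophil markers rose, while 1 macrophage marker rose and 3 fell, 1 B cell marker rose and 1 fell, and 1 of 8 T cell markers rose. Their part in the Hdac8 level was not tested. The pseudocount of 1 shrinks differences of genes with low CPM, which brings such genes closer. The measure describes 9 libraries of 3 groups.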

How the data were processed

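Total RNA from 9 mouse livers was sequenced after a kit that does not mark strand. The authors deposited counts per gene, made with Salmon and tximport against GRCm39, with GENCODE release 25 named. The deposited normalized table was not used. No fold change or p-value of the authors was used. Groups followed the labels, which do not say whether numbers pair livers. The tests were therefore unpaired, and p-values set group differences against the spread between livers.

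Counts were filtered (filterByExpr), scaled by TMM and fitted with edgeR 4.0.16 (R 4.3.3, quasi-likelihood F test, 3 groups in one fit, no covariates), with Benjamini-Hochberg adjustment over 15717 genes. Calls needed an adjusted p under 0.05 and, where stated, a fold over 1.5. DESeq2 1.42.0 was an alternative. Class shares used exact permutation tests (scipy 1.17.1). The test was tried on simulated counts. The members and lists were chosen with earlier results of these data known. Named genes were the 10 members, up to 3 genes with the smallest p per partner list and comparison, the 3 nearest by pattern, markers and label checks. G6pc3, Slc48a1, Herc4 and Hdac1-ps were named for sharing reads. 3′ UTRs came from GENCODE M39 and the miRNA from RefSeq.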

Additional observations from a re-analysis of the deposited data

How the results depend on the processing

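Of 507 refits of the members' log2 fold changes, 457 kept direction and side of the threshold, 32 lost the call, 6 gained it and 12 changed sign. Ranges given in this paragraph for leaving out a liver belong to the main fit with the 1.5-fold threshold. Members called from HCC against healthy numbered 1 with DESeq2 size factors, with DESeq2 and with glmTreat, where Hdac8 was lost. They numbered 8 with no fold threshold (1 to 3 leaving out a liver). They numbered 3, Hdac7 included, with upper-quartile scaling, no filter, at least 10 counts, these groups alone or the replicate block. From miR-22 against untreated they numbered 2 with no filter, 3 with no fold threshold and 0 with glmTreat, an edgeR test against the fold itself, where Sirt1 was lost (1 to 2 leaving out a liver). From miR-22 against healthy they numbered 2 with no fold threshold and 0 with glmTreat (0 to 2 leaving out a liver). Over all genes, miR-22 calls against untreated were 3777 with no fold threshold and 468 with glmTreat (1433 to 2660 leaving out a liver, lowest without miR-22-treated replicate 3), and against healthy 5732 and 2010. Without length scaling, the Hdac6 share differed by −4.31 points between untreated HCC and healthy livers.

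Sign changes concerned members that did not pass. Hdac5 with miR-22 was at −0.002 under upper-quartile scaling (−0.072 to 0.124 leaving out a liver). Hdac4 in miR-22 against healthy was at 0.015 with at least 10 counts in every library (−0.101 to 0.024 leaving out a liver). Leaving out a liver gave −0.005 to 0.071 for Hdac4 and −0.744 to 0.077 for Hdac9 in HCC against healthy, and −0.011 to 0.247 for Hdac6 and −0.1 to 0.18 for Hdac8 with miR-22. The cause was not tested. Hdac1-ps counts added to Hdac1, chosen after seeing the data, changed no call.

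Same-numbered livers did not deviate together (correlations −0.308 to −0.16 between untreated and treated HCC). With the replicate block, Hdac9 in HCC against healthy was at 0.296, and the adjusted p was 0.0625 for Hdac6 there, 0.0768 for Hdac3 with miR-22 and 0.233 for Hdac6 in miR-22 against healthy.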
